A study of Rattus norvegicus with 18 samples.

Results

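The genes described here are 10 genes of the circadian clock: Bmal1, Clock, Npas2, Per1, Per2, Per3, Cry1, Nr1d1, Nr1d2 and Dbp. They were chosen by name, but with earlier results of these data known. Comparisons of them with all genes therefore describe them and do not test them as a set. All 10 were found among the 22084 genes that had a probe set of their own on the arrays. Whole kidneys of Sprague-Dawley (SD) rats were profiled on 18 Affymetrix arrays, in 6 groups of 3. The groups were normal saline at 1 day, 6 weeks and 12 weeks, and CdCl2 (cadmium chloride, a nephrotoxic metal salt) at 1 day, 6 weeks and 12 weeks. The labels give no dose, route, age, sex or hour of harvest. They call the 3 samples of a group biological replicates. Every value below is a log2 signal as deposited, and a difference is in log2 units of that signal. Signals of different genes come from different probes, so levels were compared between arrays and not between genes.

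The circadian clock is a loop of transcription factors that runs in nearly every cell, the kidney tubule included. BMAL1, paired with CLOCK or NPAS2, switches on the Per, Cry and Nr1d genes and Dbp through a DNA motif called the E-box. The PER and CRY proteins then block that pair, while the NR1D proteins (REV-ERB nuclear receptors) repress Bmal1 and Npas2 through a motif called the RORE. DBP is an output of the loop and binds the D-box of further genes. In most peripheral tissues of rodents the transcripts of Bmal1 and Npas2 are therefore high at the time of day when those of Dbp, the Per genes and the Nr1d genes are low.

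Letters matching motifs of this loop occurred in the promoters of 3 of the 9 genes that had a promoter entry. Whether any of these matches is bound, or acts in the loop, was not tested. RefSeq promoters of the rat (build GRCr8, 250 bases before each start) were found for 9 genes in 11 entries, and Cry1 was not among them. Both strands were searched for the E-box CACGTG, its variant CACGTT, the D-boxes TTATGTAA and TTACGTAA, the core TAGGTCA of the RORE, and the cyclic AMP response element TGACGTCA. None of these motifs overlaps another as searched. Each line gives the gene's own strand from 5′ to 3′, with the motif in capitals.
Bmal1, chr1:176766282-176766327, + strand, RORE core: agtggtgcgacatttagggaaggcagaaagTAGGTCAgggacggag
Per2, chr9:99497020-99497085, - strand, E-box variant: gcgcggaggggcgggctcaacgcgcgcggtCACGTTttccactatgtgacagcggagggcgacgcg
Per2, chr9:99497148-99497215, - strand, D-box: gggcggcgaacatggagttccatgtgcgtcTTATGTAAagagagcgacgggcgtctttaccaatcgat
Nr1d1, chr10:84231951-84232016, - strand, E-box variant read on the opposite strand: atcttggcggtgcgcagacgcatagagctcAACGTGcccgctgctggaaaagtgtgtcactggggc
Nr1d1, chr10:84229610-84229675, - strand, E-box: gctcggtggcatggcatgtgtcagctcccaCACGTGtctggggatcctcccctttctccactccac
Positions count from the start of the gene, with -1 the base before it. The RORE core of Bmal1 spanned -16 to -10, and the same letters occurred in 2.26% of 33469 promoters. In Per2 the E-box variant spanned -62 to -57 and the D-box -192 to -185. The variant occurred in 4.07% of promoters and this D-box in 0.828%. Nr1d1 had entries for 2 starts, with a variant at -174 to -169 of the first and an E-box at -191 to -186 of the second. The E-box itself occurred in 5.59% of promoters, TTACGTAA in 0.108% and TGACGTCA in 1.59%. These are matches of letters in a short window, and the clock genes' known sites further upstream or within introns were not searched.

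Of the 10 clock genes, 8 were among the most variable genes of the data set. Ranked by standard deviation over the 18 arrays, Dbp stood at place 13 of 22084, Bmal1 at 57, Nr1d1 at 92, Npas2 at 134, Per3 at 139, Nr1d2 at 177, Per2 at 299 and Per1 at 332. Clock stood at 2889 and Cry1 at 14171. Dbp spanned 5.90 log2 units between its lowest and highest array, Nr1d1 4.70, Bmal1 4.29 and Npas2 3.93. Clock spanned 1.31 and Cry1 0.55. All 10 had a mean over the arrays above the background level of 4.22, which is the 95th percentile of the means of 1276 odorant and vomeronasal receptor genes.

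By Bmal1 and Dbp, 3 arrays stood apart from the other 2 arrays of their group: replicate 3 of cadmium at 1 day, replicate 3 of cadmium at 6 weeks and replicate 2 of cadmium at 12 weeks. Bmal1 minus Dbp, a difference whose zero is arbitrary, was -1.81 in that array at 1 day against -6.85 and -5.62 in the other two. At 6 weeks it was 1.15 against -7.15 and -7.23, and at 12 weeks -5.43 against 1.02 and 0.73. In saline the same difference lay between -6.60 and -6.21 at 1 day, between -6.73 and -5.87 at 6 weeks, and between -0.17 and 2.70 at 12 weeks. Other clock genes did not all set these arrays furthest apart. In cadmium at 12 weeks replicate 2 was highest in Per1 and Per2 and lowest in Npas2. Per1 read 8.83, 9.28 and 6.62 there in replicates 1 to 3, Per2 7.55, 8.04 and 6.60, and Npas2 8.11, 5.71 and 6.67. Replicate 3 lay further from the other arrays in Per1 and Per2, and replicate 1 did in Npas2. The main cadmium differences are given with and without the 3 arrays. These arrays were picked by Bmal1 and Dbp, so a shift in the differences of Bmal1 and Dbp without them follows from the choice. Leaving out another cadmium array could widen the Bmal1 difference. It was then 1.28 at 1 day (without replicate 1), 1.78 at 6 weeks (replicate 2) and -1.67 at 12 weeks (replicate 3).

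**Figure D1:**
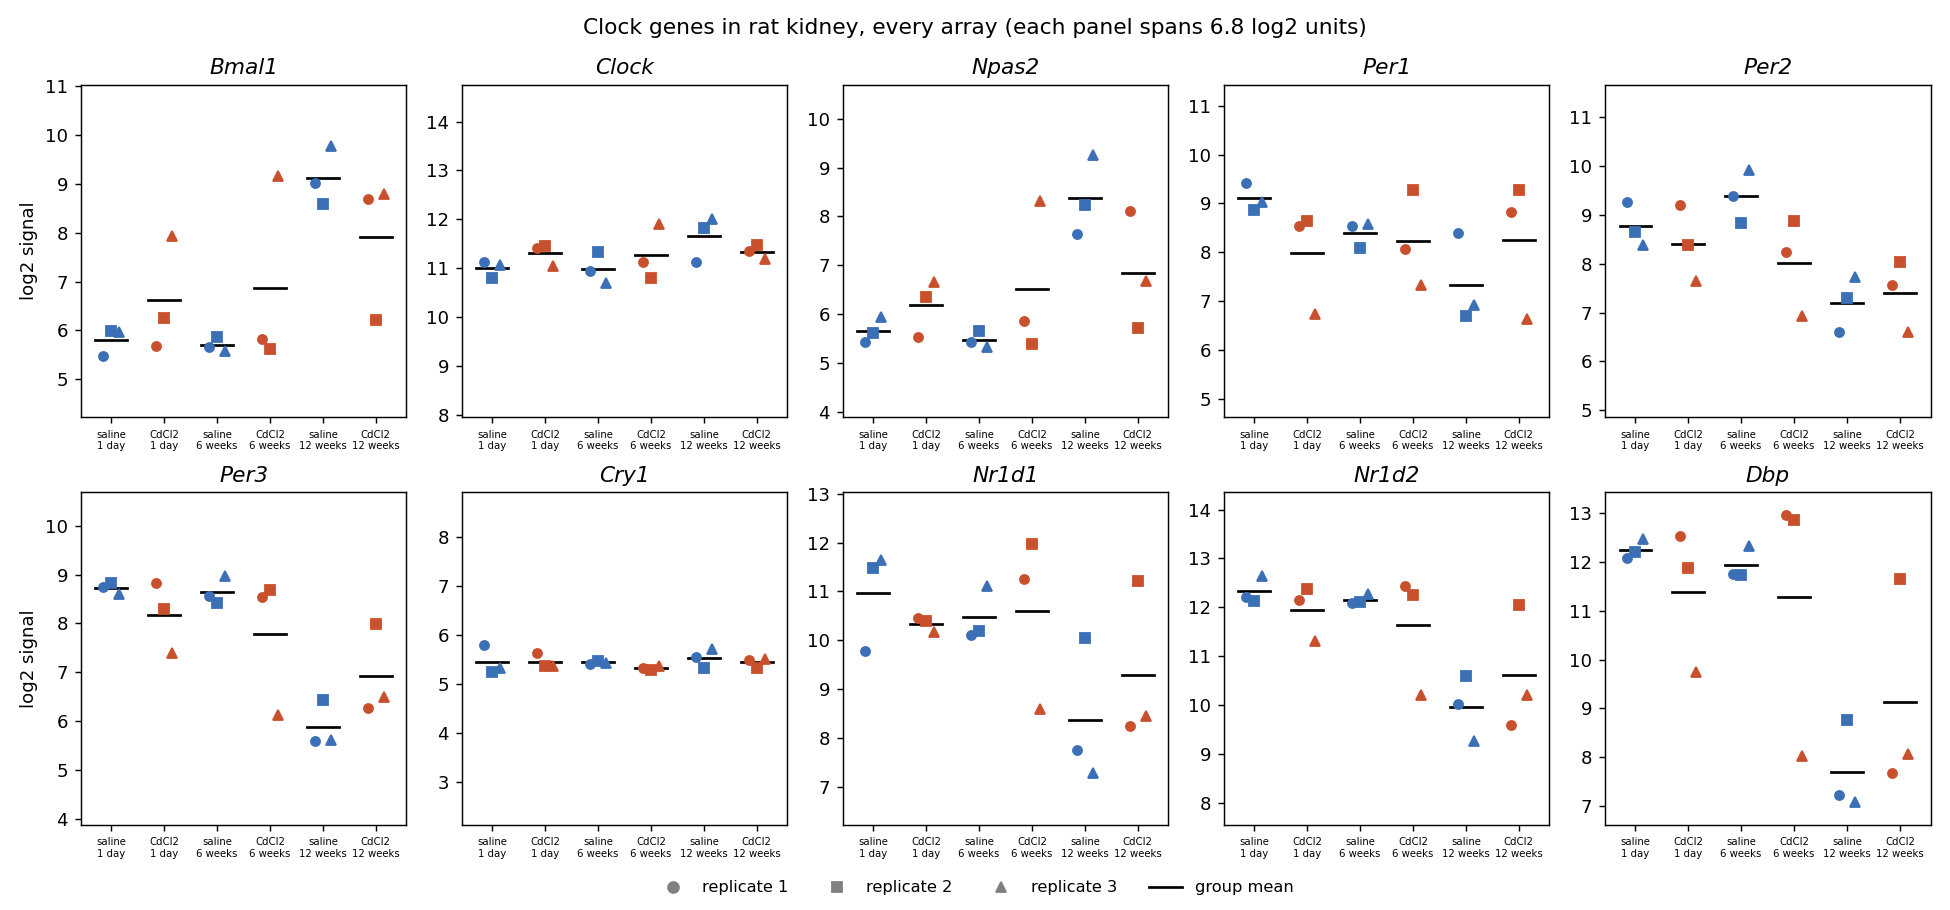
Log2 signal of the 10 clock genes in each of 18 rat kidney arrays, by treatment and time. Points are arrays, blue for saline and red for CdCl2, shaped by replicate, and bars are means of the 3 arrays of a group. The 3 saline arrays of 12 weeks lie above the other saline arrays in Bmal1 and Npas2 and below them in Per2, Per3, Nr1d2 and Dbp, and the cadmium groups hold arrays at both ends.

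Bmal1, the factor without which the loop does not run, had its highest signal in saline at 12 weeks. It read 5.48, 5.99 and 5.97 in saline at 1 day, 5.67, 5.86 and 5.59 at 6 weeks, and 9.03, 8.59 and 9.77 at 12 weeks. In cadmium it read 5.67, 6.25 and 7.94 at 1 day, 5.82, 5.62 and 9.16 at 6 weeks, and 8.70, 6.22 and 8.79 at 12 weeks. All 3 saline arrays of 12 weeks lay above all 6 earlier saline arrays, and each cadmium group overlapped its saline group. The mean in saline was 5.82 ± 0.29 (SD, n = 3) at 1 day, 5.71 ± 0.14 at 6 weeks and 9.13 ± 0.60 at 12 weeks. In cadmium it was 6.62 ± 1.18, 6.87 ± 1.99 and 7.91 ± 1.46.

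Npas2, which can take the place of CLOCK beside BMAL1, was also highest in saline at 12 weeks. Its saline signals were 5.43, 5.62 and 5.94 at 1 day, 5.44, 5.66 and 5.33 at 6 weeks, and 7.64, 8.24 and 9.26 at 12 weeks. With cadmium they were 5.53, 6.35 and 6.66 at 1 day, 5.86, 5.38 and 8.31 at 6 weeks, and 8.11, 5.71 and 6.67 at 12 weeks. The saline arrays of 12 weeks again lay above every earlier saline array. Clock, the other partner of BMAL1, stayed between 10.69 and 12.01 over all arrays. Its group means ran from 10.99 ± 0.32 (SD, n = 3) in saline at 6 weeks to 11.65 ± 0.47 in saline at 12 weeks, and all 6 groups overlapped their neighbours in that order.

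Dbp was low in the arrays where Bmal1 was high. Saline kidneys read 12.08, 12.21 and 12.46 at 1 day, 11.75, 11.73 and 12.32 at 6 weeks, and 7.23, 8.76 and 7.07 at 12 weeks. Cadmium kidneys read 12.53, 11.87 and 9.75 at 1 day, 12.97, 12.85 and 8.01 at 6 weeks, and 7.68, 11.66 and 8.06 at 12 weeks. The lowest of the 6 earlier saline arrays exceeded the highest saline array of 12 weeks by more than the range within each of these groups. The saline means were 12.25 ± 0.19 (SD, n = 3), 11.93 ± 0.34 and 7.69 ± 0.93 in order of time. The cadmium means were 11.38 ± 1.45, 11.28 ± 2.83 and 9.13 ± 2.19.

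Per3, a member of the Period family that is a clock output in most tissues more than a necessary part of the loop, had the smallest p of the 10 genes. In saline it read 8.75, 8.82 and 8.60 at 1 day, 8.57, 8.41 and 8.97 at 6 weeks, and 5.59, 6.44 and 5.61 at 12 weeks. With cadmium it read 8.83, 8.29 and 7.39 at 1 day, 8.53, 8.69 and 6.13 at 6 weeks, and 6.28, 7.99 and 6.49 at 12 weeks. The saline arrays of 12 weeks lay below all earlier saline arrays, and the 3 arrays that stood apart in the cadmium groups did so here as well.

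Per2, a core repressor of the loop, separated the same saline groups. Its signals in saline were 9.27, 8.65 and 8.39 at 1 day, 9.39, 8.83 and 9.92 at 6 weeks, and 6.60, 7.29 and 7.72 at 12 weeks. In cadmium they were 9.20, 8.37 and 7.65 at 1 day, 8.25, 8.88 and 6.93 at 6 weeks, and 7.55, 8.04 and 6.60 at 12 weeks. Cadmium and saline overlapped at every time. Per1, the Period gene that responds fastest to hormones and light, read 9.43, 8.86 and 9.02 in saline at 1 day and 8.55, 8.64 and 6.74 in cadmium at 1 day. Those 2 groups did not overlap. Its later groups all overlapped between treatments, with saline at 12 weeks between 6.69 and 8.39 and cadmium at 12 weeks between 6.62 and 9.28.

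Cry1, a strong repressor of the BMAL1 pair, varied little. Its 18 signals lay between 5.24 and 5.80, and its group means between 5.33 and 5.53. A second probe set that names Cry1 was dimmer, with a mean of 4.32 and a range of 4.11 to 4.55 over the arrays, close to the background level. Saline and cadmium at 6 weeks did not overlap, but their means were 5.44 ± 0.02 (SD, n = 3) and 5.33 ± 0.04.

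The nuclear receptors Nr1d1 and Nr1d2, which repress Bmal1, ran with Dbp. Nr1d2 in saline read 12.21, 12.12 and 12.64 at 1 day, 12.08, 12.10 and 12.27 at 6 weeks, and 10.01, 10.59 and 9.25 at 12 weeks. In cadmium it read 12.14, 12.37 and 11.30 at 1 day, 12.43, 12.24 and 10.20 at 6 weeks, and 9.60, 12.04 and 10.21 at 12 weeks. The separation of the saline groups was again complete. Nr1d1 spread more within its groups, with saline at 9.79, 11.48 and 11.64 at 1 day, 10.10, 10.19 and 11.12 at 6 weeks, and 7.74, 10.06 and 7.28 at 12 weeks. With cadmium it read 10.47, 10.39 and 10.17 at 1 day, 11.25, 11.98 and 8.60 at 6 weeks, and 8.24, 11.21 and 8.45 at 12 weeks. Replicate 2 of saline at 12 weeks lay within the range of saline at 1 day. In bulk kidney, fewer cells of a type and less RNA per cell cannot be told apart for any of these genes.

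Ordering the 6 groups of each gene by their means gave few clear steps. Neighbouring groups in the order overlapped in 8 of the 10 genes. In Per1, saline at 1 day lay wholly above saline at 6 weeks, and in Cry1 saline at 6 weeks lay wholly above cadmium at 6 weeks.

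No clock gene passed the test of any difference among the 6 groups. This was the moderated F test of limma over all 18 arrays, with Benjamini-Hochberg adjustment over 22084 genes and a threshold of 0.05, which 1.04% of all genes passed. Per3 came nearest, with F = 6.93 and an adjusted p of 0.0945. The adjusted p was 0.196 for Per2, 0.213 for Nr1d2, 0.222 for Npas2, 0.224 for Bmal1 and 0.249 for Dbp, and between 0.535 and 0.926 for Nr1d1, Clock, Per1 and Cry1. Unadjusted, 6 of the 10 genes had p under 0.05, against 12% of all genes. Without replicate 3 of cadmium at 6 weeks 3 clock genes passed, with limma's adjusted p at 0.0165 for Per3, 0.0479 for Dbp and 0.0494 for Bmal1. That array had itself been singled out by Bmal1 and Dbp. Leaving out each array in turn, 122 to 329 of all genes passed, against 230 with all 18 arrays. With array weights, which give less weight to arrays far from the fit, Per3 passed at an adjusted p of 0.0351 and Npas2 at 0.0475. With those weights 763 of all genes passed.

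The first question of the design is what cadmium did at each time. At 1 day no clock gene passed the adjusted threshold, and neither did any other gene (0% of all genes). None of the 10 had an unadjusted p under 0.05, against 1.96% of all genes. Per1 showed the largest difference between cadmium and saline, -1.13 with a standard error of 0.69 and a limma adjusted p of 1, and was the only clock gene whose groups did not overlap (5.23% of all genes). Bmal1 differed by 0.81 with a standard error of 0.86, and Dbp by -0.87 with a standard error of 1.21. Without replicate 3 of cadmium the differences were 0.15 for Bmal1, -0.05 for Dbp and -0.51 for Per1.

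At 6 weeks of cadmium, again, none of the 10 passed the adjusted threshold, against 0.0408% of all genes. Per2 read lower in cadmium by -1.36 with a standard error of 0.52 and an adjusted p of 0.431 in limma. It was the only clock gene with an unadjusted p under 0.05, a threshold that 9.88% of all genes passed. Bmal1 differed by 1.16 (95% confidence interval -0.67 to 2.99) and Npas2 by 1.04 (-0.42 to 2.50). Dbp differed by -0.66, with an interval of -3.25 to 1.94, and Per3 by -0.87. Without replicate 3 of cadmium these differences became 0.01 for Bmal1, 0.15 for Npas2, -0.82 for Per2, -0.04 for Per3 and 0.97 for Dbp, so the sign of Dbp turned. Without that array Nr1d2 went from -0.52 to 0.19 and Nr1d1 from 0.14 to 1.14. Cry1 was the only clock gene whose groups did not overlap, against 18.5% of all genes.

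At 12 weeks of cadmium the differences of all clock genes but Cry1 and Nr1d1 had the opposite sign to those at 6 weeks. Without replicate 3 of cadmium at 6 weeks, Dbp, Clock, Per1 and Nr1d2 had the same sign at both times. The 6-week differences of Bmal1 and Per3 were then 0.01 and -0.04. At 12 weeks none of the 10 genes passed the adjusted threshold, against 0.326% of all genes. Npas2 read lower in cadmium by -1.55 with a standard error of 0.68 and an adjusted p of 0.523 in limma. No other clock gene had an unadjusted p under 0.05 (9.03% of all genes). Bmal1 differed by -1.23 (95% confidence interval -3.06 to 0.61), Per3 by 1.04 (-0.23 to 2.31) and Dbp by 1.44 (-1.15 to 4.04). In no clock gene were the 2 groups without overlap, against 15% of all genes. Without replicate 2 of cadmium the differences were -0.38 for Bmal1, -0.98 for Npas2, 0.50 for Per3 and 0.18 for Dbp.

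**Figure D2:**
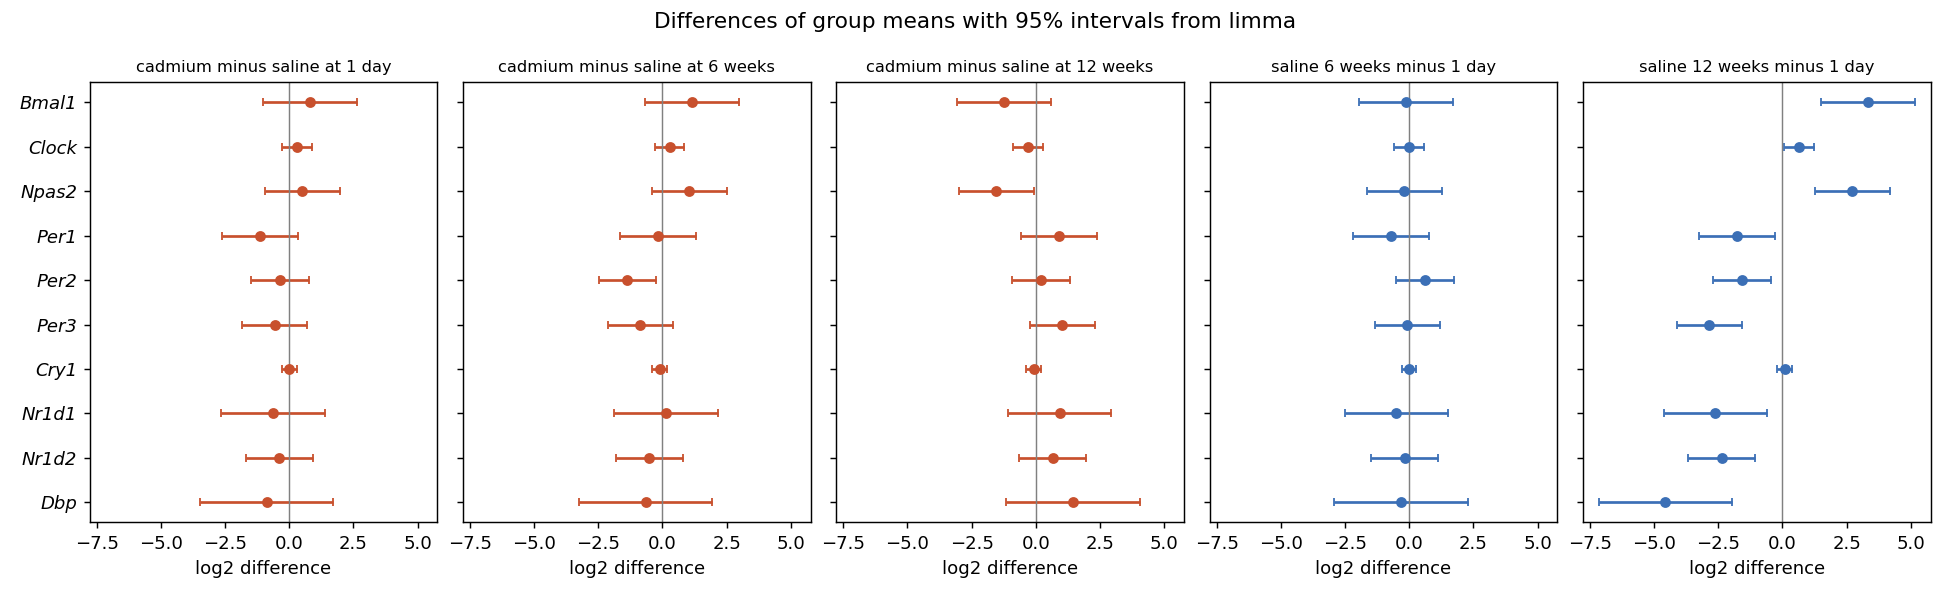
Log2 difference of each clock gene between groups, with its 95% confidence interval from limma, for cadmium minus saline at each time and for saline at 6 and at 12 weeks minus saline at 1 day. The cadmium intervals span 0 except those of Per2 at 6 weeks and Npas2 at 12 weeks, while those of saline 12 weeks minus 1 day lie off 0 for all genes but Cry1.

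The saline kidneys alone showed the widest differences. Rat age, length of saline treatment, and day and hour of harvest cannot be told apart in comparisons between these times. Between 6 weeks and 1 day of saline, all 10 differences were at most 0.70 in size. No clock gene passed the adjusted threshold there (0.503% of all genes) or had an unadjusted p under 0.05 (11.8%), and only Per1 had groups that did not overlap (17.6%).

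Between 12 weeks and 1 day of saline, 9 of the 10 clock genes had an unadjusted p under 0.05, against 8.6% of all genes. Of these 9, Bmal1, Npas2 and Clock read higher at 12 weeks and Per1, Per2, Per3, Nr1d1, Nr1d2 and Dbp lower. None passed the adjusted threshold, which 0.29% of all genes did. Bmal1 differed by 3.32 with a standard error of 0.86 and an adjusted p of 0.164, and Npas2 by 2.72 with a standard error of 0.68 and an adjusted p of 0.156. Dbp had the largest difference, -4.56 with a standard error of 1.21, a 95% confidence interval of -7.15 to -1.97 and a limma adjusted p of 0.179. Per3 differed by -2.85 with a standard error of 0.59 and an adjusted p of 0.0715. With array weights, where 131 of all genes passed against 64 without, Per3 passed at an adjusted p of 0.0422. Nr1d2 differed by -2.37 (adjusted p = 0.163), Nr1d1 by -2.61 (0.389), Per1 by -1.77 (0.464), Per2 by -1.57 (0.339), Clock by 0.65 (0.506) and Cry1 by 0.08 (0.945), all in limma. In 7 genes the 3 arrays of one time lay wholly apart from the 3 of the other, against 12.9% of all genes: Bmal1 and Npas2 higher at 12 weeks, and Per1, Per2, Per3, Nr1d2 and Dbp lower. The median size of the difference was 2.49 over the 10 genes and 0.11 over all genes.

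Saline at 12 weeks against 6 weeks, which shares the 12-week arrays with the previous comparison, gave Bmal1 3.42, Npas2 2.90 and Clock 0.66, and Dbp -4.25, Per3 -2.77, Nr1d2 -2.20, Per2 -2.18, Nr1d1 -2.11 and Per1 -1.07. Here 8 of the 10 had an unadjusted p under 0.05 (8.4% of all genes), Per1 and Cry1 being the exceptions. No gene of the data set passed the adjusted threshold (0% of all genes), and the smallest adjusted p of a clock gene was 0.308, for Per3. Groups did not overlap in 7 clock genes, against 14.6% of all genes. The median size of the difference was 2.19 over the 10 genes and 0.12 over all genes. For the cadmium comparisons those medians were 0.54 against 0.08 at 1 day, 0.59 against 0.12 at 6 weeks and 0.92 against 0.11 at 12 weeks.

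Whether the cadmium difference itself changed with time was tested as an interaction. From 1 day to 6 weeks no clock gene passed (0.00906% of all genes) and none had an unadjusted p under 0.05 (6.67%). From 1 day to 12 weeks the result was again 0 of 10 by the adjusted p (0.0408%) and by the unadjusted p (4.74%). From 6 to 12 weeks none passed the adjusted threshold (0.0136%), and 2 had an unadjusted p under 0.05 (10% of all genes). These were Npas2, whose cadmium difference moved by -2.59 (adjusted p = 0.441 in limma), and Per3, whose difference moved by 1.91 (adjusted p = 0.479). Without replicate 3 of cadmium at 6 weeks these values were -1.69 for Npas2 and 1.08 for Per3, and without replicate 2 of cadmium at 12 weeks they were -2.03 and 1.37.

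The arrays fell into separate ranges of Bmal1. In 11 arrays it lay between 5.48 and 6.25 and in 7 between 7.94 and 9.77, and the gap of 1.70 between these ranges was wider than any other gap between neighbouring arrays, the next being 0.65. The upper range held all 3 saline arrays of 12 weeks, replicates 1 and 3 of cadmium at 12 weeks, replicate 3 of cadmium at 6 weeks and replicate 3 of cadmium at 1 day. A correlation over all 18 arrays therefore rests mostly on the gap and is given only to rank genes by likeness.

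**Figure D3:**
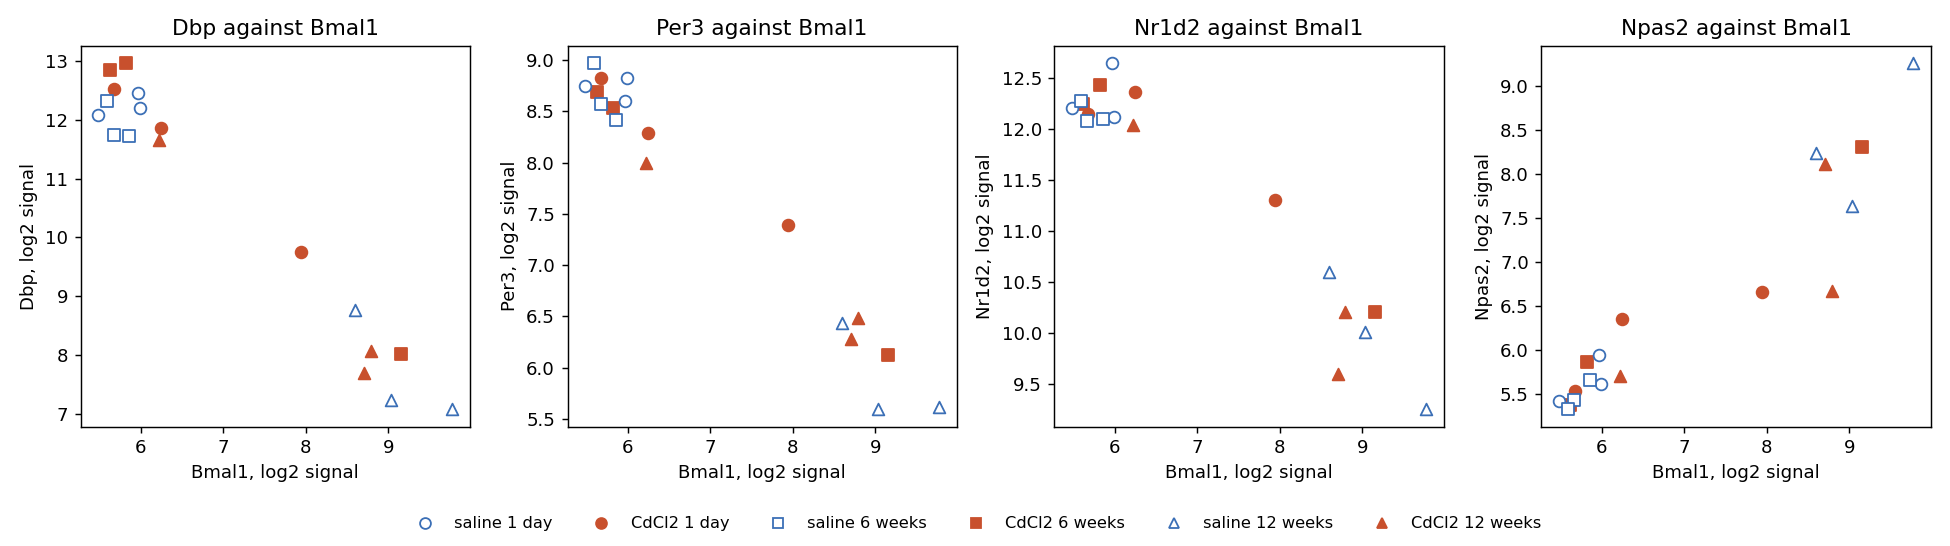
Log2 signal of Dbp, Per3, Nr1d2 and Npas2 against that of Bmal1 over the 18 arrays, each point an array, coloured by treatment and shaped by time. The 7 arrays with Bmal1 between 7.94 and 9.77 hold the low signals of Dbp, Per3 and Nr1d2 and the high signals of Npas2.

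Among 13558 named genes above the background level, the 5 with the lowest correlation to Bmal1 were Per3, Dbp, Epm2a, Tef and Nr1d2, in that order, with Pearson's r of -0.98, -0.98, -0.98, -0.97 and -0.96. Epm2a encodes laforin, a glycogen phosphatase, and Tef is a relative of Dbp that binds the same D-box. The 5 highest were Ppard at 0.96, Npas2 at 0.94, Gpam at 0.91, Arhgef10l at 0.87 and Cgn at 0.84. Epm2a read 8.23 ± 0.24 (SD, n = 3), 8.24 ± 0.26 and 6.44 ± 0.30 in saline at 1 day, 6 weeks and 12 weeks, and Ppard 7.31 ± 0.09, 7.08 ± 0.05 and 8.14 ± 0.29. Ppard is a nuclear receptor of fatty acid metabolism and Gpam the mitochondrial acyltransferase that starts glycerolipid synthesis. Taken as deviations from the group means, so that only differences among arrays of the same group count, the 5 lowest were Dbp at -0.97, Per3 at -0.97, Epm2a at -0.96, Ciart at -0.94 and Tef at -0.94. The 5 highest were then Ppard at 0.94, Npas2 at 0.87, Arhgef10l at 0.87, Col4a3 at 0.87 and Gpam at 0.85. All these values share the arrays, and genes are not independent of each other.

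Inside each range of Bmal1 the correlations of the clock genes other than Cry1 and Clock were mostly weaker than over all arrays. The ranges were cut on Bmal1 itself, which narrows its spread, so weaker correlations follow at least in part from the cut. Per3 had r = -0.74 over the 11 arrays of the lower range and -0.90 over the 7 of the upper range. Npas2 had 0.80 and 0.77. Dbp had -0.38 and -0.88, and Nr1d2 had 0.11 and -0.85. Per2 had -0.80 and -0.10, and Nr1d1 had 0.21 and -0.84. Clock had 0.52 and 0.65, against 0.62 over all arrays. Epm2a had -0.65 and -0.72, and Tef -0.83 and -0.52. The relation of Per1 to Bmal1 (r = -0.70 over 18 arrays) was -0.03 in the lower range and 0.11 in the upper range. Cry1, with 0.21 over all arrays, had -0.58 and 0.74.

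Other genes of the loop were read from a list of partners of the clock. Of its 20 genes, 17 were measured and 14 had a mean above the background level; none passed in any of the 10 tests. Across the 6 groups 4 of the 17 had an unadjusted p under 0.05 (12% of all genes), and between 12 weeks and 1 day of saline 5 of 17 did (8.6% of all genes). Of these partners Tef, Hlf, Cry2 and Timeless had the smallest p across the groups. Tef read 7.48 ± 0.30 (SD, n = 3) in saline at 1 day, 7.67 ± 0.18 at 6 weeks and 6.22 ± 0.05 at 12 weeks, and its F test gave an adjusted p of 0.212 in limma. Cry2, the second cryptochrome, read 7.09 ± 0.17, 7.03 ± 0.11 and 6.29 ± 0.23 in the same groups, a difference of -0.80 between 12 weeks and 1 day with a limma adjusted p of 0.317. Hlf, the other relative of Dbp, read 10.08 ± 0.55, 11.00 ± 0.04 and 9.57 ± 0.63. Between cadmium and saline Hlf differed by -1.15 at 6 weeks and by -1.24 at 12 weeks (limma adjusted p = 0.537 and 0.548). At 12 weeks that difference was 1.44 for Dbp and 0.43 for Tef. Timeless stayed between group means of 4.34 and 4.67, near the background level.

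Ciart, a repressor of the BMAL1 pair that was picked out after its values were seen, had a wide spread as well. Its saline mean was 7.59 ± 0.34 (SD, n = 3) at 1 day, 7.04 ± 0.72 at 6 weeks and 4.39 ± 0.03 at 12 weeks, the last close to the background level. Its difference between 12 weeks and 1 day was -3.19 with a standard error of 1.04 and a limma adjusted p of 0.321. Rora and Nfil3, also picked out afterwards as the activator and repressor that bind the RORE and the D-box, differed little between groups. Rora had group means of 10.21 to 10.83, and Nfil3 lay below the background level with group means of 3.50 to 3.86.

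**Figure D4:**
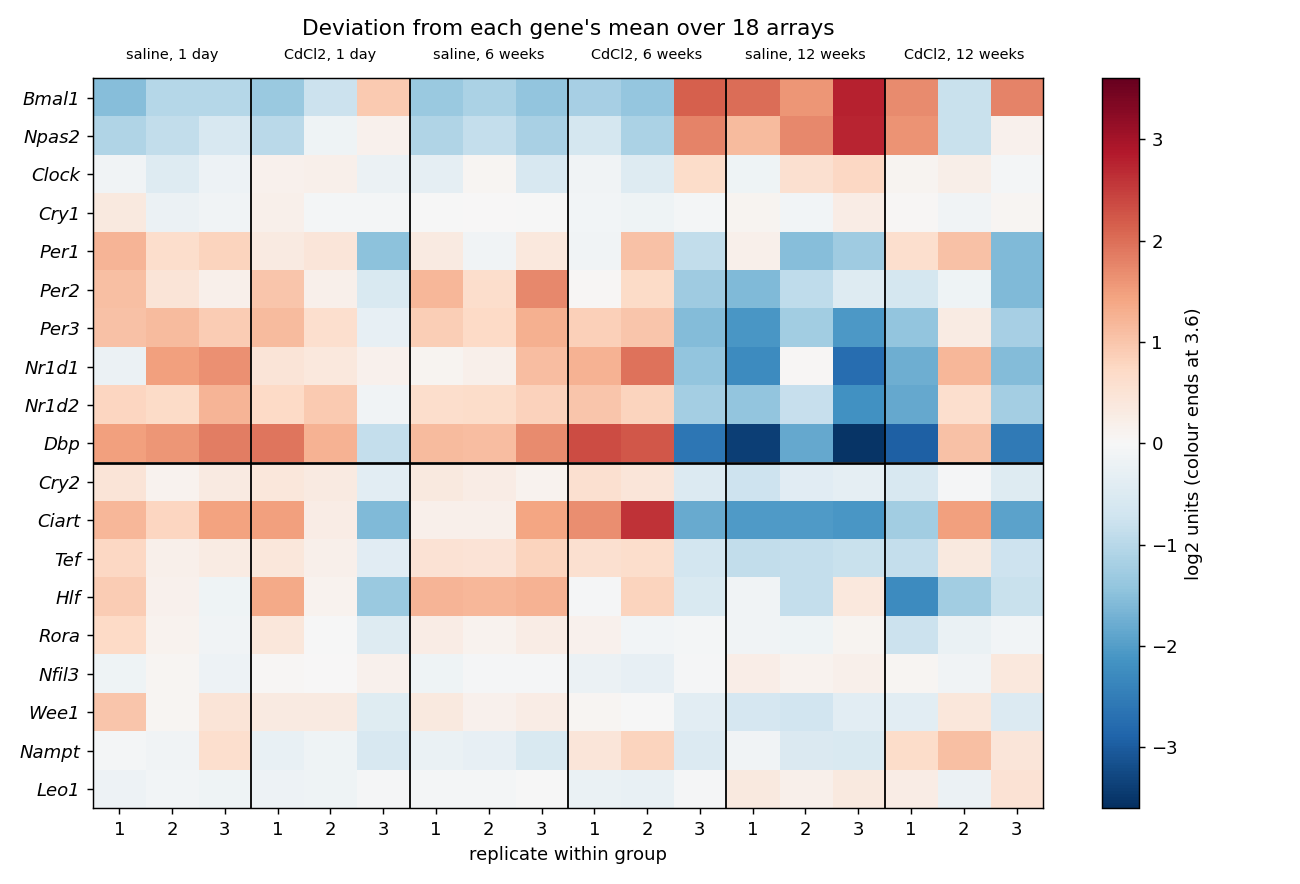
Deviation of each gene's log2 signal from its own mean over 18 arrays, for the 10 clock genes above the line and 9 partners and outputs below it, with arrays in columns by group and replicate. Red is above and blue below the mean. The 3 saline arrays of 12 weeks, replicate 3 of cadmium at 6 weeks and replicates 1 and 3 of cadmium at 12 weeks are red in Bmal1 and blue in Dbp, Per3, Nr1d2, Ciart and Cry2.

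Known output genes of the clock were less uniform. All 16 were measured and above the background level, and none passed in any of the 10 tests. Across the groups 7 of 16 had an unadjusted p under 0.05, against 12% of all genes. Between cadmium and saline at 6 weeks 5 of 16 did (9.88% of all genes), and between 12 weeks and 1 day of saline 6 of 16 did (8.6%). Wee1, a kinase that delays entry into mitosis, differed by -1.06 between 12 weeks and 1 day of saline (adjusted p = 0.156 in limma). Nampt, the rate-limiting enzyme of NAD salvage, read 9.24 ± 0.24 (SD, n = 3) in saline and 10.37 ± 0.32 in cadmium at 12 weeks, a difference of 1.14 with a standard error of 0.29 and a limma adjusted p of 0.156. Its saline signals at 12 weeks and 1 day differed by -0.54. Leo1, a subunit of the transcription complex PAF1, read higher at 12 weeks than at 1 day of saline by 0.45 (adjusted p = 0.267), and Noct, a cytoplasmic and mitochondrial phosphatase of NADP(H), differed by 0.83 between cadmium and saline at 6 weeks (adjusted p = 0.359). Of 10 genes of the glucocorticoid response, a hormone signal that entrains the kidney clock, none passed in any test. Klf9 among them read 9.44 ± 0.45 in saline at 1 day and 8.67 ± 0.17 at 12 weeks, Pck1 had its lowest mean, 14.80 ± 1.56, in cadmium at 12 weeks, and Dusp1 had its highest, 9.71 ± 0.86, in cadmium at 1 day. Mt1, a metallothionein that binds cadmium, had group means of 19.11 to 19.93, close to the highest value of the data set.

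The labelled tissue was set against cell markers. All 10 proximal tubule markers, all 4 of the thick ascending limb, all 6 of the distal tubule and collecting duct and all 3 measured podocyte markers were above the background level. Neither of the 2 measured adrenal cortex markers was, but 3 of 4 liver markers and 2 of 4 adipose markers were. A mean above this level therefore does not by itself mark kidney cells. Of 5 endothelial markers 1 passed the F test, at an adjusted p of 0.032 in limma, and no marker of the other cell types did. Between cadmium and saline at 6 weeks, 4 of 5 macrophage markers had an unadjusted p under 0.05 in limma (9.88% of all genes), and none passed. Their mean log2 signal ranged from 5.97 to 6.27 in saline and from 6.78 to 7.48 in cadmium. The lymphocyte mean there was also wholly higher in cadmium, and the podocyte, endothelial and distal and collecting duct means wholly lower. Of the 3 measured red blood cell markers, all read lower in saline at 6 and at 12 weeks than at 1 day; 1 passed at 6 weeks (adjusted p = 0.0182 in limma) and none at 12 weeks (smallest adjusted p = 0.0923). Their mean log2 signal ranged from 8.70 to 9.20 in saline at 1 day, from 7.63 to 8.22 at 6 weeks and from 8.08 to 8.27 at 12 weeks. In cadmium it ranged from 8.59 to 8.90, from 8.26 to 8.78 and from 8.33 to 9.05 at these times. The part of blood, macrophages and the other cell types that separated at 6 weeks was not tested for the clock gene differences. The mean log2 signal of the 10 proximal tubule genes moved with some of the arrays. It ranged from 15.42 to 17.29 in saline at 1 day, from 14.63 to 17.21 in cadmium at 1 day, from 15.57 to 16.78 and from 15.77 to 16.74 in saline and cadmium at 6 weeks, from 14.61 to 16.74 in saline at 12 weeks and from 13.64 to 16.19 in cadmium at 12 weeks. All 10 read lower in cadmium than in saline at 12 weeks, and none of them passed. Aqp1, the water channel of the proximal tubule, had the smallest F test p of the list (adjusted p = 0.251). The transporters Slc22a6, Slc34a1 and Slc5a2 followed, with adjusted p of 0.645, 0.664 and 0.752. Replicate 3 of cadmium at 1 day had the lowest proximal level of its group, 14.63, while replicate 3 of cadmium at 6 weeks, at 16.59, lay inside its group. Replicate 2 of cadmium at 12 weeks had the highest level of its group, 16.19 against 15.01 and 13.64. Over the 18 arrays the proximal level had r = -0.40 with Bmal1, 0.42 with Dbp and 0.48 with Per2. With that level as a covariate, an alternative added after the data were seen, the difference between 12 weeks and 1 day of saline was 3.21 for Bmal1, -4.42 for Dbp and -2.79 for Per3, and 0 of the 10 clock genes passed.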

How the data were processed

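Biotinylated cRNA made from total kidney RNA was read on Affymetrix arrays, per the labels' protocols. Each deposited value is the log2 signal of a probe set. The summarization and normalization that the authors used are not given in the sources used here, so a difference of log2 values is not a calibrated fold change. Values ran from 1.78 to 19.93, and array medians from 4.03 to 4.26. The number of arrays sets the precision, and so does how far a signal lies above background. Of 70570 probe sets, 23437 had 1 gene symbol in the platform annotation, 505 several and 46628 none, controls included. The brightest probe set naming only a gene stood for it, which gave 22084 genes, and no gene was filtered out.

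Group means of all 18 arrays were fitted in limma 3.58.1 (R 4.3.3, data.table version 1.17.8) using lmFit, then contrasts.fit, then eBayes, with 12 residual and 2.45 prior degrees of freedom. Tests were the F test over 6 groups, cadmium against saline at each time, saline between times and the 3 interactions, all two-sided, adjusted within each test by Benjamini-Hochberg over all genes, with a threshold of 0.05. The fit was also run on simulated arrays with known changes, their values drawn independently for each gene. No genes moved together in them, so they do not test the fit for arrays that stand apart. Adjusted p values in the text come from limma. Replicate numbers were not taken as pairs: the deviations of same-numbered arrays from their group means correlated between -0.469 and 0.433, with 2 of 9 pairs over 0.1. Differently numbered arrays correlated between -0.528 and 0.515, with 6 of 18 pairs over 0.1.

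The members, the gene lists and the tests were chosen with earlier results of these data known. All 10 clock genes are named, as are the 4 genes of each of the partner, output, glucocorticoid and proximal tubule lists with the smallest p of the F test, the genes most like Bmal1, and a few others said to be chosen later. Promoter sequences are from RefSeq, GRCr8. Alternatives were centring, quantile normalization, array weights, fewer arrays in the fit, a replicate block, the mean of probe sets, a filter on dim genes, each array left out, and the proximal tubule level as a covariate. The plots come from matplotlib 3.10.9 under Python 3.11.15.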

Additional observations from a re-analysis of the deposited data

How the results depend on the processing

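Among the clock genes' tests, 778 alternative values other than those leaving out an array kept sign and call, 3 newly passed and 9 turned sign; the cause was not tested. With array weights 2 clock genes passed the F test (Per3, F = 7.96, and Npas2, F = 7.05) and 1 passed saline 12 weeks minus 1 day (Per3, -2.85). The sign turned, at sizes near 0 and without a call, for Cry1 in cadmium at 1 day (-0.00664 centred on the array median, -0.026 with quantile normalization, -0.032 with the mean of probe sets), for Clock in saline 6 weeks minus 1 day (0.022, quantile) and in the change of the cadmium difference from 1 day to 6 weeks (0.057, median), for Dbp in that change (-0.054, array weights), and for Cry1 in the change from 6 to 12 weeks (-0.12 median, -0.068 quantile, -0.026 array weights).

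Counts of all genes past the threshold moved more. For the F test, 230 genes became 144 with median centring, 763 with array weights and 138 with the replicate block. Cadmium at 6 weeks (9 genes) gave 500 with array weights, 3 with the replicate block and 40 when fitted on the arrays compared alone. Cadmium at 12 weeks (72) gave 43 with median centring, 0 with only the arrays compared and 127 with array weights. Saline 6 weeks minus 1 day (111) gave 341 with array weights, 57 with the replicate block and 8 with only the arrays compared. Saline 12 weeks minus 1 day (64) gave 30 with median centring, 2 with only the arrays compared, 131 with array weights, 30 with the replicate block and 99 with the proximal tubule covariate. Saline 12 weeks minus 6 weeks (0) gave 1 with quantile normalization and 19 with array weights. The 3 interactions (2, 9 and 3 genes) gave 7, 26 and 14 with array weights; the second gave 14 with quantile normalization, 1 with only the arrays compared and 21 with the covariate, and the third gave 1 with only the arrays compared and 6 with the covariate. Of the clock genes, 0 passed with the replicate block in any test.

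Leaving out each array in turn, 850 clock gene values kept sign and call, 3 newly passed and 47 turned sign. The F test then called 122 to 329 genes and 0 to 3 clock genes, the 3 without replicate 3 of cadmium at 6 weeks. Cadmium at 6 and 12 weeks gave 2 to 32 and 33 to 108 genes. The saline comparisons gave 19 to 118 (6 weeks minus 1 day), 8 to 127 (12 weeks minus 1 day) and 0 to 10 (12 weeks minus 6 weeks), and the interactions 2 to 5, 6 to 20 and 0 to 17. Differences that turned sign had these ranges. In cadmium minus saline at 1 day, these were Per2 -0.76 to 0.017 and Cry1 -0.10 to 0.18. At 6 weeks, these were Clock -0.036 to 0.52, Per1 -0.70 to 0.28, Nr1d1 -0.55 to 1.14, Nr1d2 -0.93 to 0.19 and Dbp -1.50 to 0.97. At 12 weeks, these were Per2 -0.13 to 0.59, Nr1d1 -0.014 to 1.79 and Nr1d2 -0.052 to 1.17. In saline 6 weeks minus 1 day, these were Clock -0.18 to 0.14, Per3 -0.23 to 0.044 and Cry1 -0.12 to 0.16. In saline 12 weeks minus 1 day, these were Cry1 -0.025 to 0.25. In the change of the cadmium difference from 1 day to 6 weeks, these were Bmal1 -0.79 to 1.01, Clock -0.34 to 0.22, Npas2 -0.37 to 1.09, Per3 -0.77 to 0.52, Nr1d2 -0.54 to 0.57 and Dbp -0.64 to 1.84. From 1 day to 12 weeks, these were Cry1 -0.27 to 0.012. From 6 to 12 weeks, these were Cry1 -0.081 to 0.11 and Nr1d1 -0.20 to 1.65.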
